A study of Physcomitrium patens with 21 samples.

Results

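Stems of the moss Physcomitrium patens collected 24 h after decapitation were compared directly with stems collected 6 h after it, with 3 libraries at each time, 6 of the 21 libraries of the series. All gene models were compared through their counts of read pairs, and 20269 of 32926 models (61.6%) passed the filter on low counts. The plants were wild type, Gransden strain. Leafy shoots (gametophores) of 4-week-old colonies, kept at 23 °C under days of 16 h light and nights of 8 h dark, were decapitated, and RNA of their stems was pooled from 5 to 10 gametophores per replicate. Both groups thus carry the cut, and they differ in the hours since it. Per its label, the 24 h group also has a tag for biotic stress that the 6 h group lacks, with no agent named, and whether the tag stands for a treatment or a slip in the labels is not known here. The other decapitated groups were sampled at 0, 2 and 12 h, and a separate experiment treated gametophores of the same strain with 10 µM IAA (indole-3-acetic acid, an auxin) or with its solvent (mock) for 30 min, with 3 libraries a group.

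Mosses grow their leafy shoots from a single apical cell at the tip. The shoot tip is a source of auxin, a growth hormone that moves down the stem and keeps cells below the tip from starting side branches, and removing the tip releases this block. In mosses, cut tissue can also return differentiated cells to stem cell fate. The study names 0 h as the control of the later times. The direct comparison of 24 h with 6 h asks how the RNA of a decapitated stem at the end of the first day differs from that of the first hours, without reference to the uncut state.

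The files do not pair the gene identifiers with names, and no identifier was found in RefSeq's table for assembly ASM5946719v1, so no function is given for a gene, no marker of stem or other tissue could be checked, and 2 identifiers per direction are printed. The 6 libraries held 18995348 to 32039288 counted read pairs, the most in replicate 3 of 24 h. Reads removed because they aligned equally well to several places made up 10.99% to 11.5% of the reads at 6 h and 12.5% to 13.1% at 24 h, and the part of this difference in the results was not tested. Replicates resembled each other more than the other time. Correlations across genes of log2 CPM (counts scaled to library size) were 0.989 to 0.994 within 6 h, 0.988 to 0.992 within 24 h and 0.954 to 0.965 between the times. Pooled RNA of whole stems does not tell apart a change in the number of cells of a kind and a change in RNA per cell.

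A total of 11274 genes differed between 24 h and 6 h, and under TMM scaling, though not with library totals alone, large increases outnumbered large decreases, while the most extreme changes were decreases. At a Benjamini-Hochberg adjusted p below 0.05 in edgeR's quasi-likelihood test, 5417 genes (26.7% of those tested) were higher at 24 h and 5857 (28.9%) were lower. Among these, the rise was at least 2-fold in 1045 genes (5.16%) and the fall at least 2-fold in 716 (3.53%). This excess of large increases was not present at every level of counts, as given below by number of pairs. At 4-fold the numbers were 122 and 143, and at 8-fold 22 and 46, and at 16-fold 6 and 22. Together 55.6% of the tested genes were called, and in 12141 genes (59.9%) the 3 libraries of one time lay wholly above the 3 of the other.

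Most of the called differences were small. The median size of a called log2 fold change was 0.46, with 0.54 for the genes that rose and -0.40 for those that fell. Of the 11274 called genes, 10748 had no overlap between the 6 h and 24 h libraries, and 526 did overlap. The balance of directions depended on the scaling. With library totals alone, in place of TMM scaling, 3854 genes were higher and 8831 lower, and the median over all genes moved from -0.03 to -0.17. In the same setting the rise reached 2-fold in 766 genes and the fall in 972, so the excess of large increases turned around. With RLE size factors 5694 genes were higher and 5312 lower, and in DESeq2 5423 and 4803, so more genes rose than fell. Large increases outnumbered large decreases in both, at 1094 against 683 and at 1062 against 666. Upper-quartile scaling, added after the data were seen, gave 5643 higher and 5425 lower, with 1083 and 688 at least 2-fold.

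**Figure D1:**
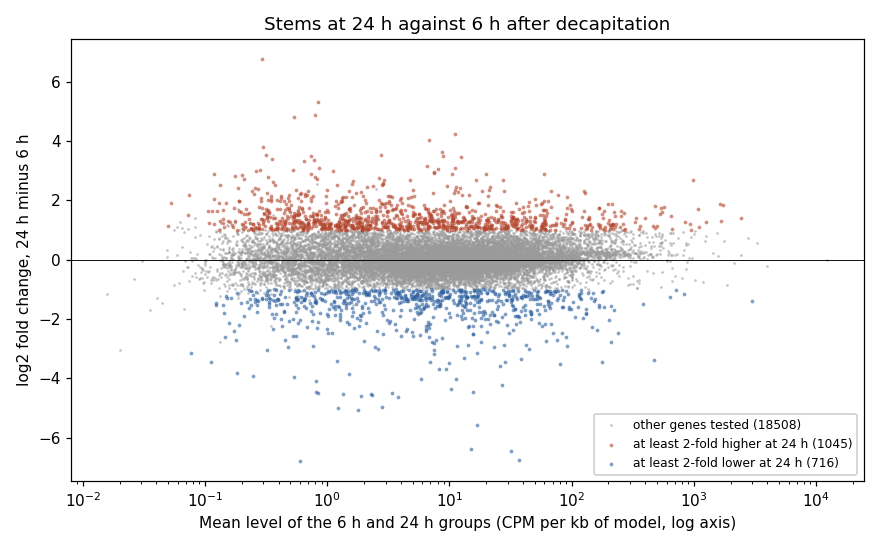
Each point is 1 of 20269 tested genes, with its mean level over the 6 h and 24 h groups (CPM per kb of model, log axis) against its log2 fold change from 6 h to 24 h. The 1045 red genes were called and at least 2-fold higher at 24 h, the 716 blue genes were called and at least 2-fold lower, and past 8-fold there are 22 red and 46 blue genes.

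Pp3c2_4100V3.1 rose the most among called genes with at least 5 CPM at the higher time and no overlap. Its 6 h libraries held 1.45, 0.631 and 1.24 CPM, whereas 22.3, 19.5 and 22.1 CPM were measured at 24 h. All libraries of 24 h were far above all of 6 h. The mean went from 1.11 CPM ± 0.426 to 21.3 CPM ± 1.58 (SD, n = 3 each), 18.9-fold, with a log2 fold change of 4.24 ± 0.228 (SE; edgeR, adjusted p = 4.57e-10). The 6 h libraries held only 36, 14 and 31 read pairs of this gene. Leaving out each 6 h or 24 h library in turn gave log2 fold changes from 3.98 to 4.48. At 0, 2 and 12 h this gene had 4.38 CPM ± 0.829, 4.56 CPM ± 0.335 and 3.43 CPM ± 1.00 (SD, n = 3 each). Its 6 h level was thus the lowest of the 5 times and its 24 h level the highest. The log2 difference of 24 h from 0 h was 2.28 ± 0.193 (SE; edgeR, adjusted p = 1.65e-06). Its response to IAA was not called, at log2 -0.91 ± 0.554 (SE; edgeR, adjusted p = 0.226).

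Pp3c13_12570V3.1 rose the most among genes with at least 10 CPM at both times. Its level was 9.96, 10.3 and 12.3 CPM at 6 h and 68.9, 76.0 and 96.1 CPM at 24 h. The groups did not overlap, and replicate 3 of 24 h was the highest library. The log2 fold change was 2.89 ± 0.144 (SE; edgeR, adjusted p = 1.98e-10), or 7.40-fold. This gene had been on the way down before, from 41.9 CPM ± 1.34 at 0 h through 21.7 CPM ± 3.98 at 2 h and 10.9 CPM ± 1.27 at 6 h, and 12 h was lower still with 5.68 CPM ± 1.02 (n = 3 each, SD). The further fall from 6 h to 12 h was called, with a log2 difference of -0.94 ± 0.174 (SE; edgeR, adjusted p = 0.000605), and so was the excess of 24 h over 0 h, at 0.94 ± 0.129 (adjusted p = 6.44e-05). It also rose in the auxin experiment, from 1.19, 3.12 and 1.31 CPM in mock to 12.4, 9.31 and 9.15 CPM with IAA, scaled apart from the stems (log2 2.45 ± 0.316, SE; edgeR, adjusted p = 0.000354).

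Pp3c11_5230V3.1 fell the most among called genes with at least 5 CPM at the higher time and no overlap. Its 6 h libraries held 242, 250.5 and 239 CPM and its 24 h libraries 2.11, 2.40 and 2.18 CPM. The log2 fold change was -6.77 ± 0.0913 (SE; edgeR, adjusted p = 2.36e-16), a 109-fold drop. The replicates of each time were close together, and the groups were far from overlapping. The 24 h libraries held only 38, 43 and 64 read pairs of this gene, so the SE may understate the counting error. The drop came late, since 12 h was still 314 CPM ± 24.2 (SD, n = 3) and above 6 h by a log2 difference of 0.37 ± 0.0609 (SE; edgeR, adjusted p = 0.000274). It ended slightly below the 0 h level of 2.94 CPM ± 0.289, with a log2 difference of 24 h from 0 h of -0.40 ± 0.126 (SE; edgeR, adjusted p = 0.0363). In the auxin experiment this gene was lower with IAA, at 1.59, 1.39 and 1.81 CPM, than in mock, at 3.82, 2.93 and 2.84 CPM (log2 -1.0001 ± 0.209, SE; edgeR, adjusted p = 0.00498).

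Pp3c17_6790V3.1 fell the most among genes with at least 10 CPM at both times. It had 425, 438 and 521 CPM at 6 h and 28.6, 33.5 and 58.1 CPM at 24 h. Replicate 3 was the highest library at 6 h and at 24 h, and these groups did not overlap. The log2 fold change was -3.51 ± 0.242 (SE; edgeR, adjusted p = 8.53e-09), an 11.4-fold drop. At 12 h the level was 389 CPM ± 30.0, and the difference of 12 h from 6 h was not called (log2 -0.25 ± 0.215, SE; edgeR, adjusted p = 0.396). At 0 h it was 66.4 CPM ± 19.5 (SD, n = 3 each), above 24 h by a margin that edgeR called (24 h minus 0 h, log2 -0.71 ± 0.231, SE; adjusted p = 0.0263). Its response to IAA was not called (log2 0.42 ± 0.241, SE; edgeR, adjusted p = 0.200).

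**Figure D2:**
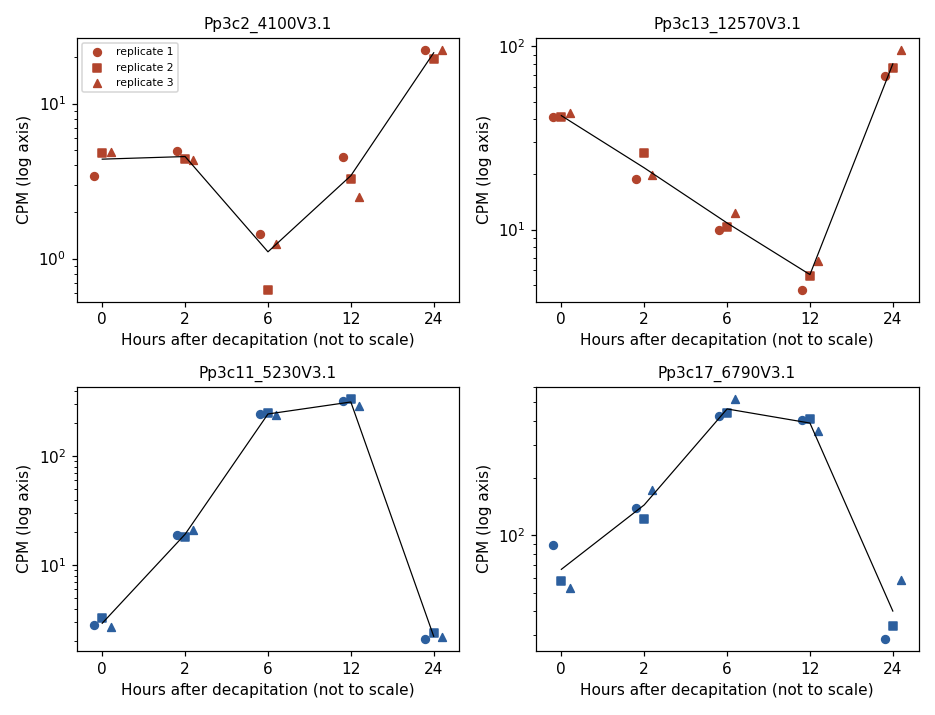
CPM (log axis) of the 4 genes in each of the 15 libraries of the decapitation series, by hours after decapitation, with a symbol for each replicate and a line through the group means. The 2 red genes were at most 12.3 CPM at 6 h and at least 19.5 CPM at 24 h, and the 2 blue genes were low at 0 h, high at 6 h and 12 h and low again at 24 h.

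The fold changes that chose the genes came from 6 h and 24 h, while the libraries of 0, 2 and 12 h entered the filter, the scaling and the shared spread. Levels at these 3 times are given as a description, and a chance extreme at 6 h or 24 h would also put them between. For the 1045 genes at least 2-fold higher at 24 h, the median of mean log2 CPM, taken relative to 6 h, was 0.77 for 0 h, 0.56 for 2 h, 0.54 for 12 h and, by choice, 1.28 for 24 h. For the 716 genes at least 2-fold lower, these medians were -0.98, -0.51, -0.47 and -1.35. Levels at 2 h and at 12 h therefore lay at nearly the same distance from 6 h in the median of each group. For the 22 genes at least 8-fold higher, the medians at 0, 2 and 12 h were 1.96, 1.08 and 0.58, and for the 46 at least 8-fold lower they were -2.79, -1.63 and -0.93. In the genes with the largest changes, then, 12 h was nearer to 6 h than 2 h was.

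**Figure D3:**
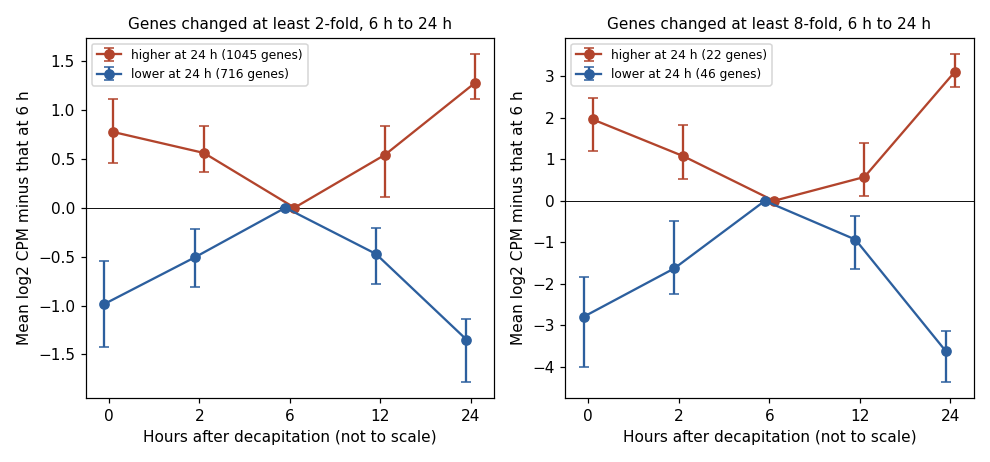
Median over genes of the mean log2 CPM at each time minus that at 6 h, with bars from the 25th to the 75th percentile over genes, for genes changed at least 2-fold (left) and at least 8-fold (right) from 6 h to 24 h. Values at 6 h are 0 by construction and the separation at 24 h comes from the choice of the genes. The medians at 0, 2 and 12 h, also taken relative to 6 h, lie between.

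For most of these genes the level before the response lay between those of 6 h and 24 h. Among the 1045 genes at least 2-fold higher at 24 h, the mean CPM at 0 h was between the other means in 878 (84.0%), above both in 125 and below both in 42 (4.02%). Among the 716 that fell at least 2-fold, it was between in 537, below both in 17.6% and above both in 53 (7.40%). The start level was nearer, on the log2 scale, to 24 h than to 6 h in 621 (59.4%) of the genes that rose and in 493 (68.9%) of those that fell. Choosing genes by the gap between 6 h and 24 h makes a level between them more likely. The same shares over all tested genes were not computed. Over all tested genes, 35.1% were called between 24 h and 0 h and 47.5% between 6 h and 0 h. Whether these positions are particular to the genes of large change was therefore not tested. A remainder moved past the start. Mean log2 CPM at 24 h exceeded that at 0 h by at least 1 in 196 of the genes that rose and lay below it by at least 1 in 141 of those that fell. The 6 h level was displaced by at least 1 in the opposite direction in 331 and 349 genes.

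The time of the extreme differed among members. By the choice of the genes that rose, 6 h could not be their highest mean nor 24 h their lowest. The mirror holds for those that fell. The choice thus makes extremes at 6 h and 24 h more likely, and the same shares over all tested genes were not computed. Of the genes that rose at least 2-fold, 776 (74.3%) had their lowest of the 5 group means at 6 h and 209 at 12 h, and 860 (82.3%) had their highest at 24 h and 115 at 0 h. Of those that fell at least 2-fold, 525 (73.3%) were highest at 6 h, 86 at 2 h and 71 (9.92%) at 12 h. Their lowest mean was at 24 h in 555 (77.5%) and at 0 h in 123 (17.2%). At 12 h, 214 (20.5%) of the genes that rose were still below their 6 h mean, and 83 (11.6%) of those that fell were still above it.

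The genes that rose at least 2-fold held a smaller share of the read pairs than those that fell at 6 h and a larger share at 24 h. The former took 4.69%, 4.76% and 4.73% of the read pairs of tested genes in the 6 h libraries and 11.3%, 11.3% and 11.7% in the 24 h libraries. The latter took 6.10%, 6.13% and 6.05% at 6 h and 1.84%, 1.94% and 1.90% at 24 h. The direction and distance of these shares follow from the choice of the genes, and so in part does a position between them. At 0, 2 and 12 h, in that order, the genes that rose held 8.98% ± 0.210, 6.97% ± 0.0562 and 6.03% ± 0.157, while those that fell held 2.49% ± 0.0357, 3.86% ± 0.0111 and 4.94% ± 0.194 (SD, n = 3 each). The 10 genes with the most pairs among those that rose accounted for 1.40% of pairs at 6 h and 3.96% at 24 h.

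**Figure D4:**
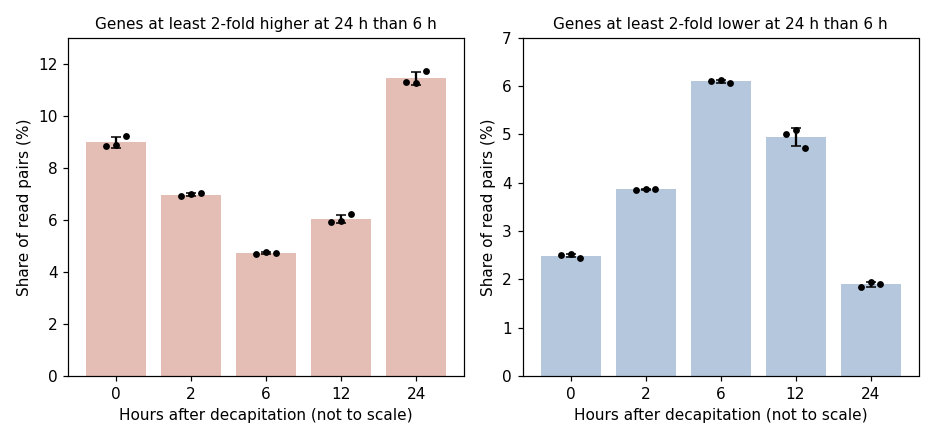
Share of the read pairs of tested genes (%) held by the 1045 genes at least 2-fold higher (left) and the 716 at least 2-fold lower (right) at 24 h than at 6 h, by hours after decapitation. Bars are means, error bars SD (n = 3) and points libraries, and the shares at 0, 2 and 12 h lie between the extremes of 6 h and 24 h in both panels.

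The single gene with the most pairs among those that rose had 1708, 1593 and 1663 CPM at 6 h and 5820, 5751 and 6354 CPM at 24 h, a log2 fold change of 1.85 ± 0.0462 (SE; edgeR, adjusted p = 1.62e-13). It had started at 4399, 4380 and 4620 CPM at 0 h, so that 24 h was above the start in every library. Its counterpart among the genes that fell went from 4869, 5424 and 5650 CPM at 6 h to 1881, 2012 and 2223 CPM at 24 h, a log2 fold change of -1.38 ± 0.0636 (SE; edgeR, adjusted p = 7.96e-11). Its 0 h libraries, at 1988, 1945 and 1993 CPM, lay within the range of 24 h. These genes were chosen for their abundance after the values were seen.

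Levels per length differed between the groups of genes at both times. Genes that rose at least 2-fold had a median of 1.92 CPM per kb of model at 6 h and 5.52 at 24 h, and those that fell at least 2-fold 9.34 and 3.03, against 9.40 and 8.99 over all tested genes. At 0 h the medians were 3.69, 4.37 and 9.27 CPM per kb. Both groups of large change thus started from lower levels per length than the typical tested gene. Changes of at least 2-fold were also more frequent at low than at middle counts, as the next paragraph gives. The part of this in the low start was not tested. Their median model lengths were 2149 and 2117.5 bases, against 2247 for all tested genes. By the prefix of the identifier, the called share lay between 52.8% and 57.9% over the 27 numbered Pp3c groups, and in 23 of them, under TMM scaling, large increases outnumbered large decreases.

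The called share differed with the number of pairs. Of the 1961 genes with a mean of at most 30 pairs over the 6 libraries, 23.8% were called, and of the 1452 genes with more than 3000 pairs 78.4% were. The median size of the log2 fold change was 0.47 in the first group and 0.36 in the second. In the 7092 genes with more than 300 and at most 1000 pairs, the median size was 0.23.

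Most genes raised at 2 h after decapitation fell from 6 h to 24 h, and most called genes among those lowered at 2 h rose. The sets were chosen by the contrast of 2 h with 0 h, which shares no group with that of 24 h with 6 h but comes from the same fit. Of the 242 genes at least 2-fold higher at 2 h than at 0 h (1.19% of tested genes), 156 (64.5%) fell from 6 h to 24 h and 12 rose, with a median log2 fold change of -1.30 against -0.03 over all tested genes. Of the 119 that were at least 2-fold lower at 2 h (0.587%), 60 (50.4%) rose and 12 fell, with a median of 0.79. Taken by library against the mean of the other time, this median ran from 0.56 with replicate 1 of 24 h to 1.04 with replicate 1 of 6 h. Over all tested genes 26.7% rose and 28.9% fell. Of the 242 genes, 135 (55.8%) were among the 716 that fell at least 2-fold, where they made up 18.9%.

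Genes displaced at 12 h also had medians on the other side of 0. Of the 421 genes at least 2-fold higher at 12 h than at 0 h (2.08% of tested genes), 257 (61.0%) fell from 6 h to 24 h and 43 (10.2%) rose, with a median of -0.87. Of the 1059 that were at least 2-fold lower at 12 h (5.22%), 446 (42.1%) rose and 109 (10.3%) fell, with a median of 0.41, or 0.26 with library totals alone. Taken by library against the mean of the other time, this median ran from 0.18 with replicate 1 of 24 h to 0.64 with replicate 1 of 6 h. Over all tested genes 26.7% rose and 28.9% fell. The genes higher at 12 h made up 190 (26.5%) of the 716 genes that fell at least 2-fold, and those lower at 12 h 238 (22.8%) of the 1045 that rose. The sets at 2 h and 12 h share the 0 h libraries, so they are not separate evidence.

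For genes that differed between 2 h and 12 h, the medians were nearer to 0. Of the 221 genes at least 2-fold higher at 12 h than at 2 h (1.09%), 86 (38.9%) fell and 52 (23.5%) rose from 6 h to 24 h, with a median of -0.21. Of the 875 genes at least 2-fold lower (4.32%), 263 (30.1%) rose and 171 (19.5%) fell, with a median of 0.16, or 0.02 with library totals alone. Over all tested genes 26.7% rose and 28.9% fell, so the shares that rose were near the background in both sets. The median of these 875 genes turned on single libraries. Taken against the mean of the other time, it was -0.06, 0.15 and 0.35 with each 24 h library and 0.45, 0.03 and -0.07 with each 6 h library. Without replicate 3 of 24 h it was 0.0059, and without replicate 1 of 6 h 0.04.

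Genes that responded to auxin in the separate experiment were set beside the 26.7% of all tested genes that rose and the 28.9% that fell from 6 h to 24 h. Of the 955 genes at least 2-fold higher with IAA than in mock (4.78% of 19989 tested there), 924 were tested in the stems, and 384 (41.6%) of them rose from 6 h to 24 h while 120 fell. Their median log2 fold change was 0.34, or 0.20 with library totals alone. Of the 277 genes at least 2-fold lower with IAA (1.39%), 269 were tested in the stems, and 156 (58.0%) fell while 44 (16.4%) rose, with a median of -0.62. By library, the median of the auxin-raised genes ran from 0.18 to 0.52 and that of the auxin-lowered genes from -0.67 to -0.59. Both medians kept their sign in each library, and the auxin-raised genes varied more.

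Seen from the stems, the auxin calls were split along the direction of change. Of the 1045 genes that rose at least 2-fold, 965 were tested in the auxin experiment, and 420 (43.5%) were called higher and 57 (5.91%) lower with IAA, at a median log2 difference of 0.34. Of the 716 that fell at least 2-fold, 663 were tested there, and 93 (14.0%) were called higher and 290 (43.7%) lower, at a median of -0.31. Of all genes tested in both experiments, 21.4% were called higher and 18.5% lower, with a median of -0.02, while 21.3% and 18.4% were called of all tested in the auxin experiment. No auxin call was made for 488 (50.6%) of the genes that rose and for 280 (42.2%) of those that fell. The auxin libraries were scaled on their own, so signs and counts are set side by side here and levels are not.

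**Figure D5:**
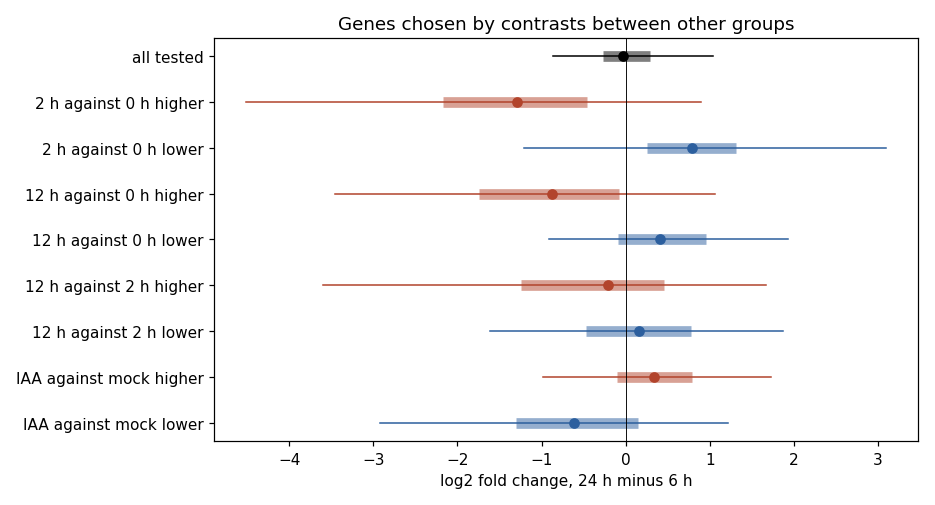
log2 fold change from 6 h to 24 h of all 20269 tested genes (black) and of 8 sets of genes called at least 2-fold higher (red) or lower (blue) in contrasts between other groups than 6 h and 24 h. The 6 sets of the decapitation series share the filter, scaling and spread with 6 h and 24 h. Points are medians, thick bars the 25th to 75th and thin lines the 5th to 95th percentile over genes, and the medians run from -1.30 for genes raised at 2 h to 0.79 for genes lowered at 2 h.

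The 24 h libraries differed from 6 h in more genes than from 0 h. In the same edgeR fit 35.1% of tested genes were called between 24 h and 0 h, 45.6% between 24 h and 12 h, 47.5% between 6 h and 0 h and 38% between 12 h and 6 h, against 55.6% between 24 h and 6 h. These comparisons share libraries and their differences in number were not tested. Replicates spread slightly more at 24 h, where the median SD of log2 CPM over genes was 0.103, than at 6 h, where it was 0.0886. The hours of the day at which the stems were cut and collected are not among the labels used here. Hours since decapitation, hour of day and whatever the stress tag of the 24 h group stands for, if anything, cannot be told apart in these data.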

How the data were processed

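Stranded paired-end libraries were made after polyA selection from 4 µg RNA, per the labels' protocols. The submitters' processing notes name Bowtie2. Genome build and annotation are not given in the sources used here. The deposited values are raw counts of read pairs and of single reads per gene model. Per the file headers, multi-mapped reads with equal scores were dropped, which lowers the counts of genes that have near-identical copies, and counted pairs were those properly paired on 1 model. It is not stated if counts were strand-specific, so overlapping antisense genes may not be separated.

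Pair counts of the 15 decapitation libraries were fitted in R 4.3.3 with edgeR 4.0.16 (filterByExpr, TMM, glmQLFit and glmQLFTest, group as the sole term), and the contrast was 24 h minus 6 h. Genes were called at a Benjamini-Hochberg adjusted p below 0.05. The spread is shared by the 5 groups. The quasi-likelihood test gives no SE, so each SE printed with a log2 difference is its absolute value divided by the square root of the test's F. It restates the test and is not a separate estimate of error, and at low counts it can be smaller than the counting error. CPM values are TMM-scaled and log2 CPM uses a prior count of 2. IAA and mock were fitted apart. The scripts were run on simulated counts that were drawn with the fitted spread and had a small set of changed genes. Such data cannot check the scaling where 55.6% of tested genes are called. The alternatives included DESeq2 1.42.0 and are given under the dependence on processing.

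The genes printed by identifier are, per direction, the called gene without overlap that changed most with at least 5 CPM in the higher group, and the one that changed most with at least 10 CPM in both. The sets, the groups of genes and this rule were chosen with earlier results of these data known. The design calls the libraries biological replicates.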

Additional observations from a re-analysis of the deposited data

How the results depend on the processing

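Across 17 alternative fits, the 4 genes printed by identifier kept their direction and their call in edgeR and DESeq2, and no large change among the 1761 switched sign. Of these 1761, 279 were no longer called at 2-fold or more with library totals alone, 221 without replicate 1 of 6 h and 174 with a filter of 1 CPM in 3 libraries, the highest losses among the alternatives. With library totals alone 8831 genes were lower at 24 h, against 5857, and the medians were -1.43 for the genes raised at 2 h, -1.01 for those raised at 12 h, -0.35 for those higher at 12 h than at 2 h and -0.76 for those lowered by IAA. In that setting the positive medians shrank by over 1.5 times for the genes raised by IAA (from 0.34 to 0.20), those lowered at 12 h against 0 h (from 0.41 to 0.26) and those lower at 12 h than at 2 h (from 0.16 to 0.02). These moves were within the SD between libraries, taken as the larger of the SDs at 6 h and at 24 h. That SD measures scatter between replicates and cannot judge a shift common to all libraries, so these medians are not shown to be unchanged. The median of the genes raised at 12 h was -0.85 with RLE size factors, -0.85 with upper-quartile scaling (added after the data were seen), -0.97 with a filter of 1 CPM in 3 libraries, -0.94 with the 6 compared libraries alone and -0.85 in DESeq2. With that filter the genes higher at 12 h than at 2 h had a median of -0.35 and the auxin-lowered genes -0.68, and with the 6 libraries alone the former had -0.26. A test against a 2-fold threshold (glmTreat) called 388 genes higher and 346 lower, where 1045 and 716 passed as called and at least 2-fold. In each of these cases the cause was not tested, beyond the stricter construction of glmTreat. With the replicate number as a block, 5471 genes were higher and 5908 lower. Same-numbered libraries of 24 h and 6 h did not all deviate together (correlations 0.14, -0.15 and 0.13), so the numbers were not taken as pairs, and not every library correlated best with its own number. Leaving out each 6 h or 24 h library in turn gave 4939 to 5257 genes higher and 5185 to 5490 lower, 946 to 1175 and 711 to 766 of them at least 2-fold, and medians of -0.92 to -0.87 for genes raised at 12 h and -0.28 to -0.18 for genes higher at 12 h than at 2 h. The sets were kept as chosen in all alternatives. The other 629 of 648 values, among them the positions of 0 h and every value without replicate 1 of 0 h, stayed within 1.5 times the reported count, within 1 SD between libraries of a median, or on the same side of the threshold.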
